A study of Bos taurus with 21 samples.

Results

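The set described here holds the 58 endometrial transcripts, of 28054 counted, that were most clearly higher in pregnant than in cyclic heifers at day 16. They were chosen from measured values. In each heifer a transcript's count was divided by the heifer's total and multiplied by 1000000, which gives CPM, and L denotes log2(CPM + 1). A mean of 1 CPM or more over the 20 heifers was reached by 16580 transcripts, and among these a member had a mean L at least 2 higher in the 5 pregnant than in the 5 cyclic day 16 heifers, with the lowest pregnant heifer above the highest cyclic one. That is 0.350% of the 16580. With edgeR, a count model fitted to all transcripts, 58 of the 58 were called higher at day 16, against 0.931% of the 14826 transcripts tested, from which nothing is read since the rule used the same heifers. Because the day 16 groups chose the members, every day 16 value below is a description without a test.

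The heifers were cross-bred beef animals, mainly of Charolais and Limousin crosses, whose cycles had been synchronised with a vaginal progesterone device and a prostaglandin F2α analogue. Pregnant heifers had been inseminated and carried a conceptus of the right stage when their uterus was flushed, and cyclic heifers had not been inseminated. Both were slaughtered on day 13 or day 16, which gave 5 cyclic and 5 pregnant heifers at each day, all 4 groups sharing the same synchronisation. The labels give no age. The tissue was endometrium, mainly from between the caruncles, of the flushed uterine horn ipsilateral to the corpus luteum. Each heifer is a separate animal, and the heifer numbers used below are those in the labels.

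The endometrium lines the uterus and consists of luminal and glandular epithelium, stroma, vessels and immune cells. As background, the elongating bovine conceptus secretes interferon tau, a type I interferon that acts on the endometrium, lowers the release of the prostaglandin pulses that would end the life of the corpus luteum, and switches on a large class of interferon-stimulated genes through the JAK-STAT pathway. Which of the members belong to that class cannot be said here, since the files hold Ensembl transcript identifiers without gene names and 0 of the 28054 identifiers matched the reference table of bovine genes used here. For the same reason the defining markers of endometrium could not be checked. Only 2 identifiers are named, and the other members are called by their rank, from 1 to 58, in mean CPM of the pregnant day 16 heifers. In bulk tissue, more cells of a type and more RNA per cell cannot be told apart.

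Library totals ran from 1256870 to 3764342 counts over the 20 heifers, so that 3 counts were worth between 0.797 and 2.39 CPM. Pregnant day 16 heifer 12 had a second library, which was left out of all values unless it is named. Over the members it was closer to heifer 19 than to the first library of heifer 12, as the values at the end show.

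Not all of the 58 identifiers are separate measurements. In 6 sets, with 14 members, the counts kept a constant ratio over the 21 libraries more closely than counts of separate reads would. Chi-square divided by its degrees of freedom was 0.00293 to 0.375. Separate reads give about 1 where the true ratio is constant, and more where it varies. Over the 640 member pairs with expected counts of at least 20 the median was 18.1. The closest pair was that of ranks 19 and 21, and rank 17 belonged to the same set. Ranks 1 and 2 formed another set, at 0.206. Outside these sets the lowest value was 0.709, and pairs near 1, such as ranks 9 and 10 at 1.15, were kept as separate. The limit of 0.5 was chosen after the values were seen. Keeping 1 identifier of each set leaves 50 distinct count profiles, and the main counts and sums below are given for these 50 as well.

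The most abundant member, ENSBTAT00000012035, had 86.6, 143, 149, 235 and 243 CPM in the cyclic day 16 heifers. In the pregnant day 16 heifers it had 1532, 1578, 2460, 2715 and 3175 CPM. The lowest pregnant heifer was thus several times above the highest cyclic one, and the means were 171 ± 66.4 CPM (SD, n = 5) and 2292 ± 720 CPM (n = 5). At day 13 it stood at 338 ± 247 CPM (n = 5) in cyclic and 449 ± 463 CPM (n = 5) in pregnant heifers. Rank 2 kept the same pattern at a lower level, as a set with shared counts must, with 145 ± 55.3 CPM (n = 5) in cyclic and 1949 ± 601 CPM (n = 5) in pregnant day 16 heifers.

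Rank 3 had the highest cyclic mean of any member at day 13. It held 133, 162, 412, 760 and 1017 CPM in the cyclic day 13 heifers and 138 to 236 CPM, median 145, in the cyclic day 16 heifers. The cyclic day 13 heifers therefore differed among themselves by far more than the cyclic day 16 heifers did. In pregnant day 16 heifers it had 770, 1325, 1384, 1429 and 2239 CPM, so that its highest cyclic day 13 heifer lay above its lowest pregnant day 16 heifer.

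Rank 4 had a much lower baseline. Its cyclic day 16 heifers had 17.03 to 31.8 CPM, median 26.9, and its pregnant day 16 heifers had 410, 629, 918, 1139 and 1251 CPM, a ratio of means of 34.2. Rank 5 was the opposite case, with an even baseline of 154 ± 13.0 CPM (SD, n = 5) and a smaller ratio of 5.17, from 590 to 953 CPM and a median of 862 CPM in pregnant heifers.

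**Figure D1:**
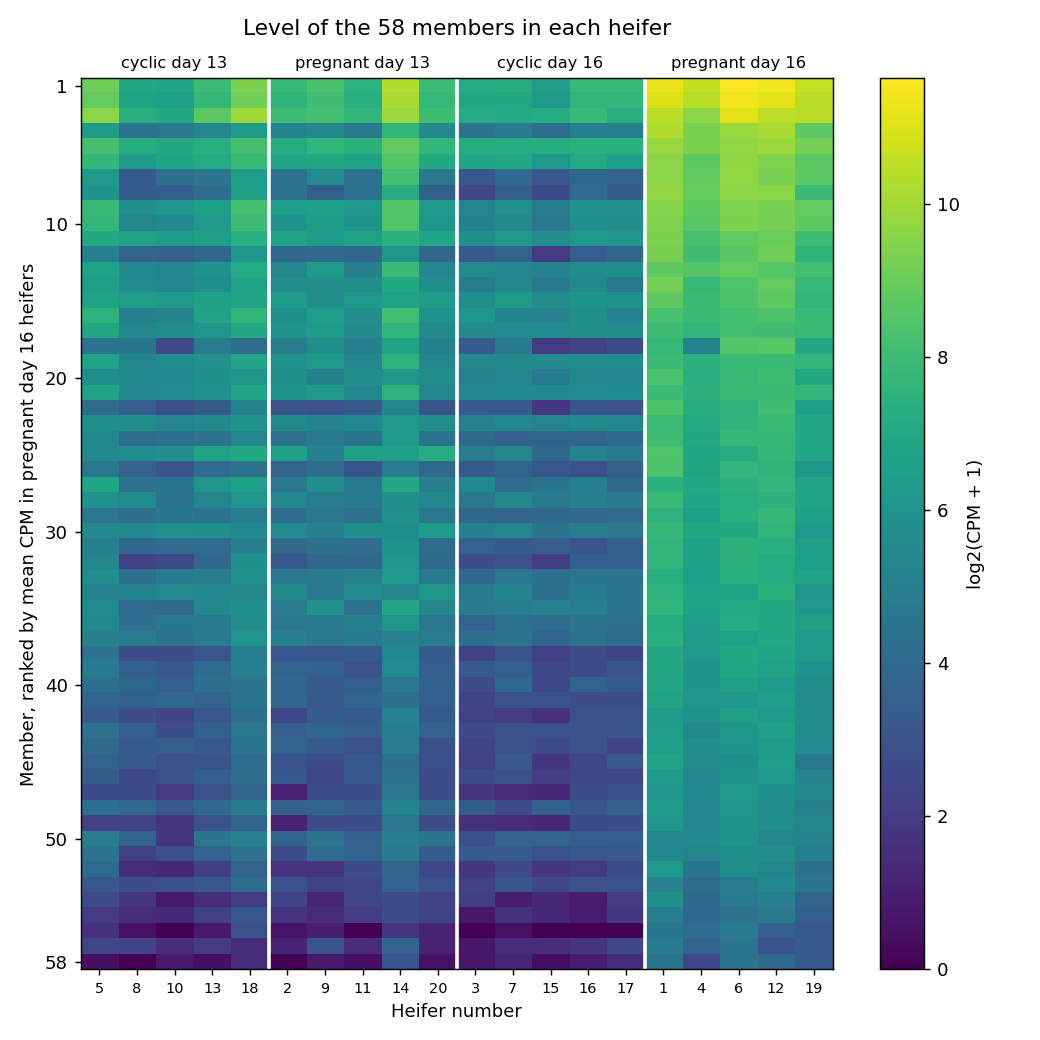
Each row is 1 of the 58 members, ordered by mean CPM in pregnant day 16 heifers, each column is 1 heifer, white lines part the 4 groups, and colour gives log2(CPM + 1). The 5 pregnant day 16 columns are brighter than the 5 cyclic day 16 columns in every row by the choice of members. Among day 13 heifers, 14 reached the lowest pregnant day 16 heifer in 10 members, 18 and 20 in 3 each, 9 in 2 and 5 in 1.

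The differences of mean L at day 16 ranged from 2.02 to 5.89 over the 58 members, with a median of 3.08 against -0.03 over the 16580 transcripts. They were at least 3 in 33 members, at least 4 in 8 and at least 5 in 3 (29, 8 and 3 of the 50 distinct profiles). The largest belonged to ENSBTAT00000011146, rank 8. It had 4.59, 5.07, 9.59, 11.4 and 15.7 CPM in the cyclic day 16 heifers. It had 229, 469, 767, 772 and 854 CPM in the pregnant ones, a ratio of means of 66.7. Rank 7 came next, with a difference of 5.61 and the widest gap between the groups. Its highest cyclic day 16 heifer had 14.6 CPM and its lowest pregnant one 409 CPM.

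Nearly all members were counted in cyclic endometrium too. Mean CPM in the cyclic day 16 heifers was at least 10 in 31 members, from 1 to 10 in 26 and under 1 in 1 (26, 23 and 1 of the 50 distinct profiles). The exception, rank 56, had 1 count in all 5 cyclic day 16 heifers together and 186 counts in the 5 pregnant ones, at 8.90 to 25.3 CPM. In the 26 members with a baseline of 1 to 10 CPM the median difference was 3.44, and in the 31 with a higher baseline it was 2.63. A floor near 1 CPM enters both the baseline and the difference, so the order of these medians is a description of the scale as well as of the transcripts. The 31 members with the higher baseline held 1.43% ± 0.381 (SD, n = 5) of the counts in pregnant day 16 heifers, against 0.299% ± 0.113 (n = 5) for the 26.

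**Figure D2:**
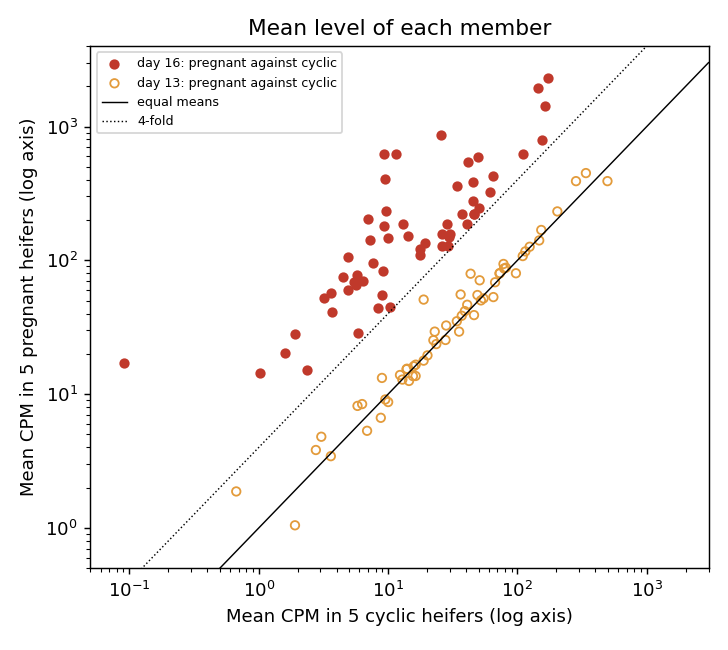
Mean CPM of each of the 58 members in 5 pregnant heifers against that in 5 cyclic heifers, both on log axes, at day 16 (filled) and day 13 (open). The solid line marks equal means and the dotted line a 4-fold ratio. Most day 13 points lie along the solid line. Ranks 18 and 58 lie above it, at 18.8 and 0.670 CPM in cyclic and 50.9 and 1.88 CPM in pregnant heifers. The day 16 points lie above the dotted line, though the rule bounds the difference of mean log2(CPM + 1) and not this ratio.

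At the edge of the rule, the members with the smallest differences were rank 50, at 2.02, and rank 35, at 2.05. Rank 50 had 6.23 to 13.05 CPM in cyclic and 36.2 to 63.4 CPM in pregnant day 16 heifers. The nearest transcripts outside had differences of 1.97 and 1.96. The first of these had 23.2 to 47.8 CPM in cyclic and 96.1 to 206 CPM in pregnant day 16 heifers, much like the members inside. A further 2 transcripts had differences of 2.58 and 2.04 but overlapping groups. The gap between the lowest pregnant and the highest cyclic heifer had a median of 1.85 on the log2 scale over the members, was at least 1 in 53 of them, and was narrowest in rank 57, with 7.10 against 4.99 CPM. Over all 16580 transcripts, 1.36% had every pregnant above every cyclic day 16 heifer.

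At day 16 the members together took 0.176% ± 0.0291 (SD, n = 5) of each cyclic heifer's counts and 1.73% ± 0.490 (n = 5) of each pregnant heifer's. Over the 50 distinct profiles these shares were 0.146% ± 0.0231 and 1.44% ± 0.416 (n = 5 each). A few members carried most of the load. Over the 50 distinct profiles, the most abundant held 16.0% of their counts in pregnant day 16 heifers, the first 10 held 61.4%, and 7 made up at least 50%. In cyclic day 16 heifers the 10 most abundant there held 62.5%, so the counts were about as concentrated at the low level as at the high one.

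The pregnant day 16 heifers were not alike. The members took 1.18% of the counts in heifer 19, 1.21% in heifer 4, 2.004% in heifer 12, 2.12% in heifer 6 and 2.12% in heifer 1. Heifers 19 and 4 were low across the set and not in a few members. Heifer 19 was the lowest of the 5 in 39 members and heifer 4 in 18 (35 and 14 of the 50 distinct profiles), whereas over the 13894 transcripts at least as abundant as the least abundant member (mean of 4.48 CPM over 20 heifers) they were lowest in 18.45% and 13.78%. Heifer 1 was the highest in 34 members, heifer 6 in 17 and heifer 12 in 7 (31, 12 and 7 of the 50). Over the same 13894 transcripts they were the highest in 26.59%, 17.26% and 20.53%. Heifer 1 also had the fewest counts of all heifers, 1256870, and the part of depth in its level was not tested. In the cyclic day 16 heifers the shares ran only from 0.134% in heifer 15 to 0.210% in heifer 16.

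**Figure D3:**
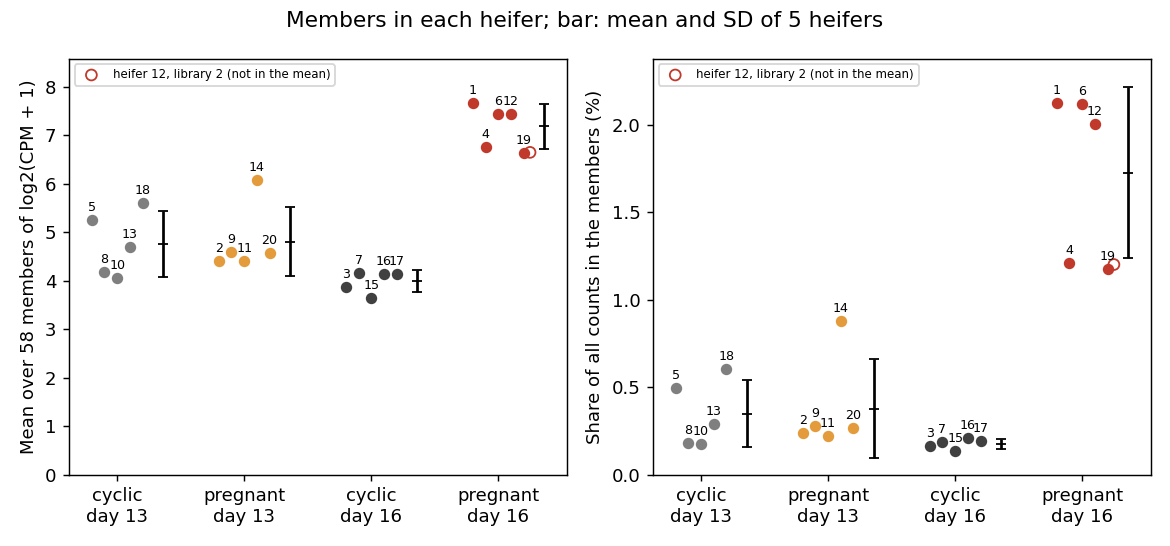
Mean log2(CPM + 1) over the 58 members (left) and their share of all counts in percent (right) in each heifer, with heifer numbers; the bar beside each group gives the mean and SD of 5 heifers, and the open circle is the second library of heifer 12. Heifers 4 and 19 sit below the other pregnant day 16 heifers, and heifer 14 stands above the other pregnant day 13 heifers.

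Day 13 is the only comparison of pregnant with cyclic heifers whose values did not choose the members, apart from the filter on mean CPM. There, 0 of the 58 members passed the edgeR quasi-likelihood test at a Benjamini-Hochberg adjusted p under 0.05, and neither did any of the 14826 transcripts tested (0%). DESeq2 and limma voom also called 0 of the 58, and DESeq2 called 3 transcripts outside the set. At an unadjusted p under 0.05 edgeR gave 1 of the 58 members, against 6.54% of all transcripts. The fitted log2 fold change was above 0 in 38 members and below 0 in 20, with a median of 0.08 against 0.01 over all transcripts. The sign of the members' median hung on single heifers. It was -0.41 without pregnant heifer 14 and 0.36 without cyclic heifer 18. By mean L, 36 of the 58 members were higher in pregnant day 13 heifers, against 48.0% of the 16580 transcripts. The smallest edgeR adjusted p among the members was 0.727. The precision was low: the 95% interval of a member's log2 fold change reached 0.86 to either side at the median, and 1.90 in the least precise one. In the most precise one it reached 0.40.

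Between pregnant and cyclic day 13 heifers ENSBTAT00000012035 differed by 0.44 in log2 (SE 0.57), with an edgeR adjusted p of 0.825 and a range of 0.63 to 1 over the alternatives, and did not pass. ENSBTAT00000011146 differed by 0.13 (SE 0.78), with an edgeR adjusted p of 0.972 and a range of 0.797 to 1, and without pregnant heifer 14 the values were -0.48 and -1.45. By mean L the difference of ENSBTAT00000011146 was below 0, at -0.15. The difference of mean L over the members had a median of 0.02, and of -0.27 without heifer 14. The member that stood out most was rank 18. It had 5.36, 16.8, 20.9, 22.01 and 29.1 CPM in the cyclic and 29.8, 30.3, 34.1, 53.9 and 106 CPM in the pregnant day 13 heifers. Its groups just failed to overlap, as 0.320% of all transcripts did in this direction, and its log2 fold change of 1.48 (SE 0.64) did not pass (edgeR adjusted p = 0.727). The lowest day 13 difference of mean L belonged to rank 53, at -0.34.

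Single day 13 heifers nonetheless differed widely in these transcripts. Pregnant heifer 14 had a mean L of 6.07 over the members, against 4.39 to 4.58 in the other 4 pregnant heifers and 6.62 in the lowest pregnant day 16 heifer. It was the highest of the 10 day 13 heifers in 43 of the 58 members (36 of the 50 distinct profiles), against 14.5% of the 13894 transcripts above. These are called transcripts of like abundance below, though their abundance was bounded from below only and not matched to the members. The L of heifer 14 was at least 1 above the mean of the other 4 in 45 members (38 of the 50), against 1.53% of those transcripts. Among the cyclic heifers, which carried no conceptus, heifer 18 had a mean L of 5.61 and heifer 5 of 5.26, against 4.68, 4.18 and 4.04 in heifers 13, 8 and 10. Heifer 18 was at least 1 above the other 4 cyclic heifers in 32 members and heifer 5 in 16 (29 and 15 of the 50), against 0.885% and 1.82% of the transcripts of like abundance.

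Members with a larger day 16 difference tended to be further above the rest of the group in heifers 14 and 18. Across the 58 members, the day 16 difference and the deviation of heifer 14 from the rest of its group had a Pearson correlation of 0.613. The same correlation was 0.547 for cyclic heifer 18 and 0.316 for cyclic heifer 5, and it lay between -0.387 and -0.121 for the other 7 day 13 heifers. The 5 deviations of a group sum to 0 in each member, so positive values in some heifers require negative ones in others. Over the 13894 transcripts of like abundance the correlation was 0.0295 for heifer 14 and 0.0481 for heifer 18, and from -0.278 in heifer 9 to 0.133 in heifer 20 over all 10. Over the 50 distinct profiles it was 0.617, 0.532 and 0.364 for heifers 14, 18 and 5. The transcripts of like abundance had day 16 differences with quartiles of -0.17 and 0.11, against 2.47 and 3.75 in the members. Their correlations thus cover an unlike range of differences and are not matched to those of the members. The day 13 and day 16 values share no library. The members are not independent points, and members of low abundance have both values pulled towards 0 by the pseudocount, so these are descriptions. ENSBTAT00000011146 had 149 CPM in heifer 14 and 96.9 CPM in heifer 18, against 10.4 to 19.1 CPM in the other pregnant and 9.84 to 61.9 CPM in the other cyclic day 13 heifers.

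**Figure D4:**
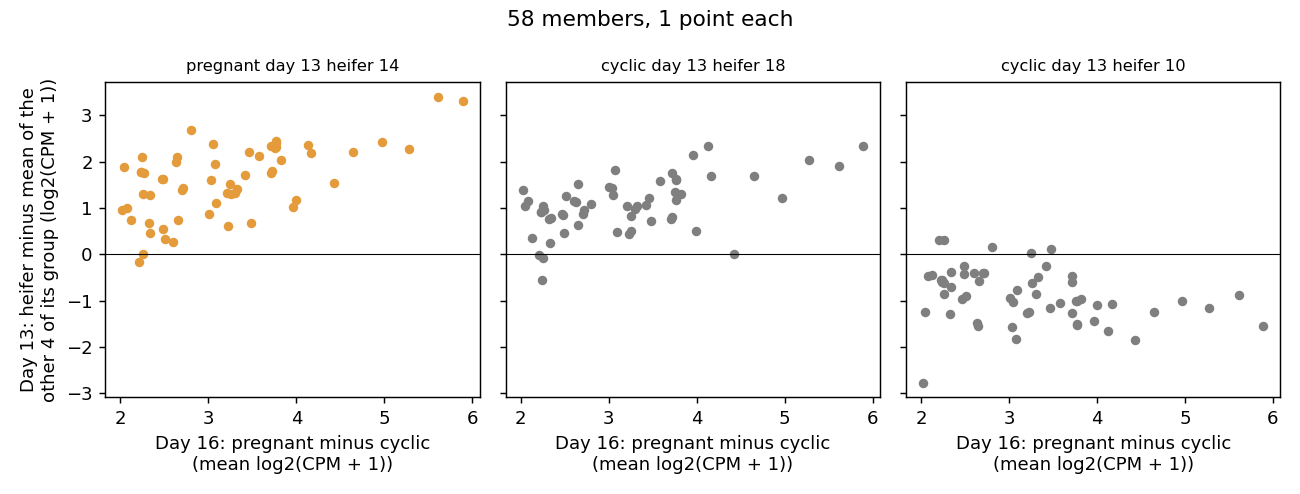
Deviation of 1 day 13 heifer from the mean of the other 4 of its group, in log2(CPM + 1), against the day 16 difference of mean log2(CPM + 1), for each of the 58 members and for heifers 14, 18 and 10. Points of heifers 14 and 18 lie mostly above 0 and higher to the right, while those of heifer 10 lie mostly below 0.

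The file names carry a 6-digit token whose meaning the labels do not give, written here as letters A to D. Cyclic day 13 heifers 5, 13 and 18, the 3 highest of their group, all carried letter B, heifer 8 carried C and heifer 10 carried A. Pregnant heifer 14 carried A, as did heifer 11 with a mean L of 4.41, and pregnant heifers 2 and 20 carried B with 4.39 and 4.57. The part of whatever the token marks in the day 13 levels was not tested. Within letters, mean L was 1.20 higher in pregnant day 13 heifers in A (2 against 1 heifers), -0.70 in B (2 against 3) and 0.40 in C (1 against 1), against 0.05 over all letters. At day 16 it was 3.91 higher in A (2 against 1) and 3.05 in C (2 against 3), against 3.20 over all letters. No day 16 difference could be formed in B, with 1 pregnant heifer, or in D, with 1 cyclic heifer.

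Between days, the members were lower in cyclic heifers at day 16 than at day 13 and higher in pregnant ones. Both changes contain day 16 values that chose the members, so they carry no test. In cyclic heifers 57 of the 58 had a lower mean L at day 16, with a median difference of -0.77 against 0.01 over all 16580 transcripts, and rank 58 alone was higher, by 0.32. In the 64 transcripts that met the rule except for a day 16 difference of 1 to 2, 85.9% were lower, with a median of -0.22, so the members are not alone in this. Every cyclic day 16 heifer lay below every cyclic day 13 heifer in 9 members (8 of the 50 distinct profiles), where 1.88% of all transcripts separated in this way. In pregnant heifers all 58 were higher at day 16, against 49.7% of all transcripts, with a median of 2.37 against -0.003. Of the members, 45 separated the groups (40 of the 50), where 1.97% of all transcripts did. All of the 64 were higher too, with a median of 1.17. In 10 members heifer 14 reached or passed the lowest pregnant day 16 heifer.

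The members varied more between heifers than the transcripts of like abundance, and most of all at day 13. The SD of L within a group had a median over the members of 0.68 in cyclic and 0.79 in pregnant day 13 heifers, against 0.27 and 0.32 over the transcripts of like abundance and 0.46 and 0.43 over the 64 transcripts with a day 16 difference of 1 to 2. At day 16 the medians were 0.37 in cyclic and 0.50 in pregnant heifers, against 0.25 and 0.27. The 64 transcripts had 0.33 and 0.41 there, nearer to the members. The SD was above the median of like transcripts in 52 members among cyclic and 56 among pregnant heifers at day 13, and in 43 and 54 at day 16. The day 16 values are not independent of the rule, since the demand for groups that do not overlap limits the spread there.

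They also varied together. Over the 10 day 13 heifers, taken as deviations from their group means, the 1653 pairs of members had a median Pearson correlation of 0.776, and 94.3% of the pairs were positive. Over all pairs of the 13894 transcripts of like abundance the median was 0.00224, and 50.2% were positive. With 1 identifier kept of each set with shared counts, the median was 0.781 over 1225 pairs. The co-variation rested in large part on the heifers with the highest levels. Without heifer 14 the median was 0.658, without heifers 14 and 18, the 2 farthest from the median level, 0.495, and without heifer 5 as well 0.293. The transcripts of like abundance had 0.000306 without heifers 14 and 18 and 0.00116 without heifer 5 as well. The members' median was 0.816 within the 5 cyclic and 0.824 within the 5 pregnant day 13 heifers. It was 0.366 within the 5 cyclic day 16 heifers and 0.847 within the 5 pregnant ones. In the same order the transcripts of like abundance had 0.00044, 0.00616, 0.000319 and 0.0169. The day 16 groups chose the members, so the day 16 values are descriptions.

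**Figure D5:**
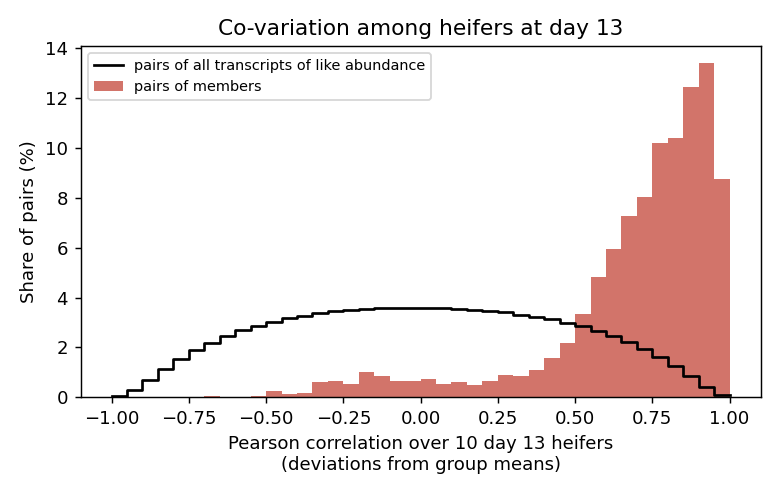
Share of pairs, in percent, by the Pearson correlation of the 2 transcripts over 10 day 13 heifers after removal of group means. Bars show the 1653 pairs of members, and the line all pairs of transcripts of like abundance, which was bounded from below only. Member pairs gather near 1, with a median of 0.776, while the line is centred near 0.

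Not every member took part. Each member was set against the mean of the other 57 over the day 13 heifers, and this correlation was at least 0.9 in 29 members and under 0.5 in 3. These 3 were ranks 34, 30 and 25, at -0.236, -0.101 and 0.265, and they were chosen after their values were seen. Ranks 30 and 34 form one of the sets with shared counts. Rank 30 was even among the cyclic day 13 heifers, at 42.2 to 57.5 CPM, and heifer 18, high in most members, had 46.2 CPM. In pregnant day 13 heifers it had 52.8 CPM in heifer 14 and its highest value, 85.7 CPM, in heifer 20. At day 16 it had 20.3 to 40.5 CPM in cyclic and 74.9, 124, 133, 203 and 214 CPM in pregnant heifers. Its gap between the day 16 groups, 0.87 on the log2 scale, was one of the narrow ones.

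The second library labelled heifer 12, which the rule did not use, had all 58 members above the highest cyclic day 16 heifer, with a mean L of 6.64 and a share of 1.20%. The first library of that heifer had 7.43 and 2.004%, and heifer 19 had 6.62 and 1.18%. The 58 members differed between the second library and heifer 19 by a median of 0.125 in L and by at most 0.393. Against the first library of heifer 12 the median was 0.693. Heifer 4, also low among the pregnant day 16 heifers, was near the second library too, with a median of 0.205, but differed by up to 1.79. Since the second library was this close to heifer 19, which did choose the members, it is not an independent check of them.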

How the data were processed

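RNA sequencing of endometrium from 20 heifers gave 21 libraries. The authors deposited whole-number read counts for Ensembl transcript identifiers. The submitters' processing notes name CASAVA without a version. The aligner, counting program, annotation, build and strand setting: not given in the sources used here. Reads shared between transcripts may have been counted more than once.

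Groups and heifer numbers came from the labels. The members and the choices made here were set with earlier results of these data known. CPM is 1000000 times the count over the library total, and L = log2(CPM + 1). Heifer 12 is its library 1. The test across all transcripts was edgeR 4.0.16 in R 4.3.3: filterByExpr (minimum count 10, minimum total 15), TMM scaling (trimmed mean of M values), then a robust quasi-likelihood fit of 4 group means in 20 heifers, and Benjamini-Hochberg adjustment over 14826 transcripts. It was checked on simulated data with randomly drawn transcripts changed, which does not measure its power for the members. At day 13 the members' median SE was 0.41, against 0.20 over all transcripts. Each standard error was derived from F and the fold change. DESeq2 1.42.0 and limma 3.58.1 were alternatives. Floors of 3 counts cover counting error only. The rule for named transcripts took the most abundant member and the one with the largest day 16 difference, and ranks were described by abundance, baseline, threshold and day 13 difference. Gene lists and cell type markers were not used, since no identifier had a symbol.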

Additional observations from a re-analysis of the deposited data

Results flagged for a closer look

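In 60 sets of 5 heifers, 14 sets had a value standing well apart from the other 4. For normally distributed values the cutoff would flag about 1 set in 20 by chance. Most sets here held CPM of the members described above, some of them described because of extreme values in these data. That rate is therefore no yardstick for the 14. The sets are related, since the same heifers and co-varying transcripts recur in them. All 10 in pregnant day 13 heifers came from heifer 14. It had a mean L of 6.07 over the members, against 4.39 to 4.58 in the other 4, and a share of counts of 0.880%, against 0.221% to 0.279%. In that heifer ENSBTAT00000012035, rank 1, had 1272 CPM against 182 to 308, rank 2 had 1116 CPM against 155 to 271, and rank 3 had 955 CPM against 202 to 285. Rank 4 had 203 CPM against 25.5 to 46.0, rank 5 had 436 CPM against 143 to 204, and rank 7 had 285 CPM against 19.4 to 48.4. ENSBTAT00000011146, rank 8, had 149 CPM against 10.4 to 19.1, and rank 58 had 7.76 CPM against 0 to 0.797.

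The other 4 came from 3 heifers. Cyclic day 13 heifer 18 had 16.39 CPM of rank 53, against 5.62 to 7.94. Cyclic day 16 heifer 16 had 236 CPM of rank 3, against 138 to 156. Cyclic day 16 heifer 7 had 26.4 CPM of rank 18, against 2.90 to 9.51, and 0.455 CPM of rank 56, which is a single count, where the other 4 had 0.

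The second library labelled heifer 12, which was left out of the main values, had a mean L of 6.64 over the members, above the 3.64 to 4.15 of the cyclic day 16 heifers.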

How the results depend on the processing

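The number of members, 58, ran from 56 to 63 on choosing the members again without any one heifer, 33 with a difference of at least 3 required, 81 with at least 1.5, and 55 with a pseudocount of 2 or library 2 alone as heifer 12. Over 30 alternatives the median day 16 difference ran from 2.97 to 3.19 and the share in pregnant day 16 heifers from 1.44% to 1.95%. The share in cyclic day 16 heifers was 0.146% with 1 identifier per set of shared counts. The median day 13 difference ran from -0.27 without heifer 14 to 0.21. The median pairwise correlation at day 13 ran from 0.658 to 0.828 with each heifer left out, and was 0.495 without heifers 14 and 18 and 0.293 without heifers 5, 14 and 18. These last 2 alternatives and the sets of shared counts were chosen after seeing the data.

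Of the 58 members 0 were called at day 13 under 28 alternatives; over all transcripts DESeq2 called 3 at day 13. With each heifer left out, the day 13 log2 fold change ran from -0.48 to 0.82 for ENSBTAT00000012035 and from -1.45 to 0.78 for ENSBTAT00000011146. For the latter it was -0.20 with limma voom and -0.33 with the file name token as a covariate. Without cyclic heifer 8, 10 or 13 it was -0.11, -0.13 and -0.08. The cause of these changes of sign was not tested. At day 16 the transcripts called over all alternatives numbered 112 to 186, against 142, with 54 to 58 of the 58 members among them. The value of 54 was reached with the file name token as a covariate and without cyclic heifer 7 or 15. No paired analysis was possible because the groups share no heifer number. Low totals limit what can be seen at day 13 in members near 1 CPM.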
